A study of Arabidopsis thaliana with 6 samples.

Results

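Plant cells keep their shape and place their division planes with an array of microtubules, built from alpha- and beta-tubulin, and with a network of actin filaments. In growing leaf cells the cortical microtubules guide cellulose deposition, and actin filaments carry organelles and vesicles. TRM proteins (TON1 recruiting motif) bring TON1 and a protein phosphatase complex to microtubules, an assembly known from the ring of microtubules that marks the coming division plane. NET (Networked) proteins bind actin filaments and tie them to membranes, MAP65 proteins bundle microtubules, and ADF and PRF (profilin) proteins govern the turnover of actin.

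The genes of these families were taken by name. Probe sets to which the platform annotation gives 1 gene with a symbol of the TRM, NET, TUA (alpha-tubulin), TUB (beta-tubulin), ACT (actin), MAP65, ADF or PRF families were kept, which gave 34 genes out of 13356 genes with a probe set of their own. They were 15 TRM, 10 NET, 2 TUA, 5 TUB and 2 ACT genes, each with 1 probe set. No probe set carried a MAP65, ADF or PRF symbol, and those 3 families were not analysed here. TRM82 entered by its letters alone, since it is annotated as a tRNA modification gene, and it is kept apart below.

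Transcript levels were measured on 6 Affymetrix ATH1 arrays, 3 of bzip63-2 and 3 of Ws. bzip63-2 is the T-DNA insertion line FLAG_610A08, also labelled H3-2, in the Wassilewskija (Ws) accession, and Ws is its wild type. bZIP63 encodes a transcription factor phosphorylated by the energy-sensing kinase SnRK1. All plants were harvested at 25 d after germination at the end of the night, after growth at 22°C in short days of 10 h of light and 14 h of darkness. Each array stands for a pool of the 4 youngest leaves of 5 plants, to which the methods add the shoot apical meristem. A single insertion line was compared with its wild type, and in such bulk tissue fewer cells of a type cannot be told apart from less RNA per cell.

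The values are log2 values as the authors' RMA processing left them, and the lowest value was 2.47 on every array. On each array 39.4% to 42.2% of values were no more than 0.05 above this floor. The bZIP63 probe set read 8.65, 8.55 and 8.78 in bzip63-2 and 5.32, 5.51 and 5.91 in Ws, so the insertion line had the higher value; where this probe set lies with respect to the T-DNA is not stated in the sources used. Of the leaf markers, RCA (Rubisco activase) lay at 11.58 to 11.82 in bzip63-2 and 11.52 to 11.71 in Ws. The shoot meristem markers CLV3 and UFO had the same value near the floor on all 6 arrays. The pollen markers ANX1 and ANX2 lay at the floor, apart from 1 value of 2.53 for ANX2 in Ws.

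Of the 34 genes, 14 had a mean of the 6 arrays above 3, which was 41.2% of the members and 36.2% of all 22746 probe sets. Another 9 members stayed within 0.05 of the floor on all 6 arrays, and 11 lay between. The tubulins were the best measured, with 6 of 7 genes above a mean of 3. Of the 14 TON1-recruiting genes, 3 were above it, and of the NET genes 3 of 10. One of the 2 actins reached it. Differences of genes close to the floor are compressed, so a small difference there sets no limit on the difference in transcript level.

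Genotypes were compared with limma over all probe sets, and each difference is bzip63-2 minus Ws. No member had an adjusted p under 0.05, and 0% of all probe sets passed in either direction. Even the bZIP63 probe set, with a difference of 3.08, had an adjusted p of 0.11 from limma in this fit. With probe sets averaging 3 or less dropped, its adjusted p was 6.4e-04 from limma, and 57 of 8242 probe sets were called. The absence of calls over all probe sets therefore does not show an absence of change. At an unadjusted p under 0.05, TRM20, TUB5 and NET1D were higher in bzip63-2, against a background of 4.33% of all probe sets, and TUB6 and ACT11 were lower, against 2.04% (6.37% in either direction). The same 5 members, 14.7% of the 34, were those with no overlap of bzip63-2 and Ws arrays, against 10.0% of all probe sets (6.81% higher and 3.23% lower in bzip63-2). In a design of this size the smallest two-sided p that exact permutation allows for 1 gene is 0.10. The p-values given are those of the limma fit, which sets each difference against a modelled spread between these pools. Unadjusted values below 0.10 rest on that model. The median difference was 0.00 over the 34 members and 0.00 over all probe sets.

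**Figure D1:**
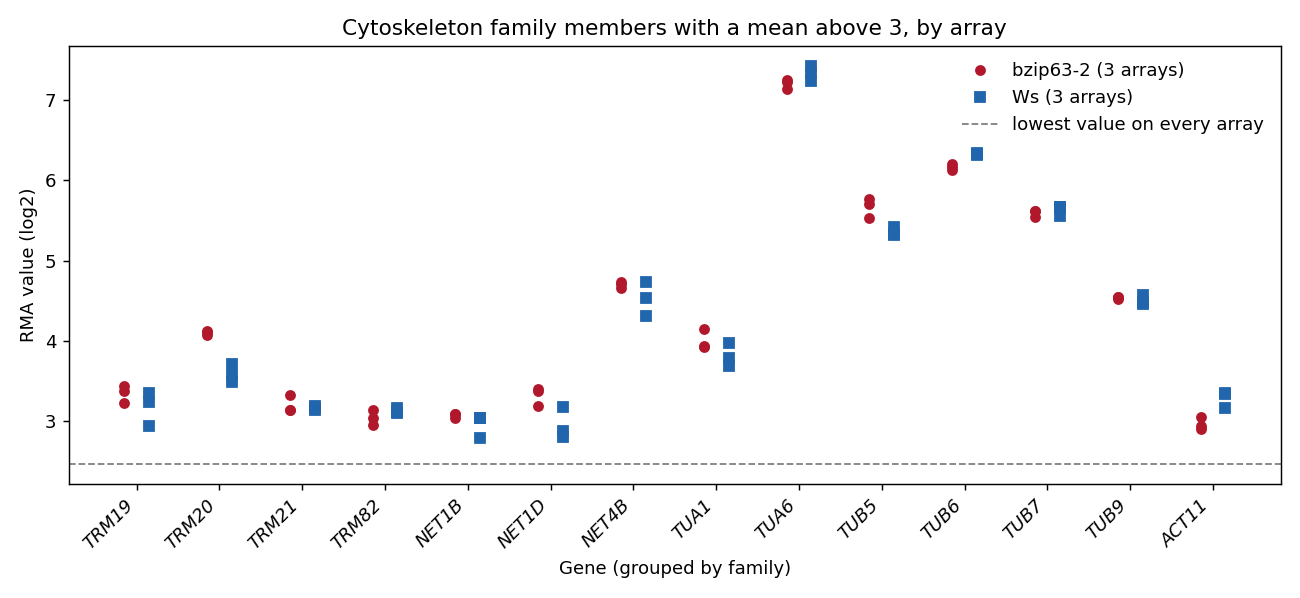
RMA values (log2, vertical axis) of the 14 members with a mean above 3 (horizontal axis), with 1 circle for each bzip63-2 array, 1 square for each Ws array and a dashed line at the lowest value of every array. TRM20 stands at 4.08 to 4.12 in bzip63-2 and 3.49 to 3.71 in Ws, while TUB9 and TUB7 overlap.

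Among the beta-tubulins, which pair with alpha-tubulin to form the microtubule wall, TUB5 and TUB6 differed in opposite directions. TUB5 (AT1G20010) had 5.76, 5.70 and 5.53 in bzip63-2 and 5.42, 5.34 and 5.32 in Ws. Every bzip63-2 array was above every Ws array, by at least 0.11, and bzip63-2 replicate 3 was the nearest to Ws. The difference was 0.31 (standard error 0.07), a 1.24-fold higher level, with an adjusted p of 0.52 from limma. TUB6 (AT5G12250) had 6.17, 6.20 and 6.13 in bzip63-2 and 6.33, 6.34 and 6.32 in Ws. Here every bzip63-2 array was below every Ws array, and the Ws arrays lay within 0.03 of each other. The difference was -0.17 (standard error 0.02), so the level was 1.12-fold lower, with an adjusted p of 0.29 from limma.

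The balance of these beta-tubulins was also read within each array, where a common scaling cancels; this pair was chosen after the values were seen. TUB5 minus TUB6 lay between -0.60 and -0.40 in the bzip63-2 arrays and between -1.01 and -0.92 in the Ws arrays. The mean was -0.50 ± 0.10 (SD, n = 3 arrays) in bzip63-2 and -0.98 ± 0.05 (SD, n = 3) in Ws, a shift of 0.47, which is the sum of the separate differences of these genes and so no further evidence. Only the shift is interpretable, because the probe sets differ in brightness for equal transcript. TUB5 minus TUB7 was 0.07 ± 0.14 (SD, n = 3) in bzip63-2 and -0.28 ± 0.05 (SD, n = 3) in Ws, without overlap. TUB6 minus TUB7 was 0.57 ± 0.08 (SD, n = 3) in bzip63-2 and 0.70 ± 0.06 (SD, n = 3) in Ws, and these arrays overlapped, so the lower level of TUB6 was not separated from TUB7 within arrays.

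The other beta-tubulins overlapped between the genotypes. TUB7 had 5.62, 5.54 and 5.61 in bzip63-2 and 5.67, 5.67 and 5.55 in Ws, a difference of -0.04 with a 95% interval from -0.16 to 0.08. TUB9 had 4.54, 4.52 and 4.55 in bzip63-2 and 4.46, 4.48 and 4.58 in Ws, and its difference of 0.03 had a 95% interval from -0.06 to 0.12. Neither interval reached the difference measured for TUB5, though the 95% interval of TUB5, from 0.11 to 0.50, overlapped that of TUB9. With probe sets averaging 4 or less dropped from the fit, 6 members were fitted. Of these, TUB5 higher and TUB6 lower were still those with an unadjusted p under 0.05, against 12.8% of probe sets higher and 5.87% lower. TUB1, known mainly from roots and dark-grown hypocotyls, lay near the floor, at 2.75 in each bzip63-2 array and at 2.71 to 2.79 in Ws.

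The alpha-tubulins gave no separation. TUA6 (AT4G14960), the alpha-tubulin widely used to label microtubules, had 7.25, 7.23 and 7.14 in bzip63-2 and 7.33, 7.43 and 7.24 in Ws. Only bzip63-2 replicate 1, which lay above Ws replicate 3, kept the genotypes from separating, and the difference was -0.13 (95% interval from -0.29 to 0.04). TUA1, known mainly from pollen, had 3.92, 3.93 and 4.14 in bzip63-2 and 3.68, 3.79 and 3.97 in Ws, a difference of 0.18 (95% interval from -0.10 to 0.47). TUA3 and TUA5, which lie side by side on chromosome 5, share a probe set that cannot be assigned to either. It had 7.26, 7.28 and 7.19 in bzip63-2 and 7.30, 7.29 and 7.22 in Ws, so the reading common to both genes moved by -0.03 (95% interval from -0.12 to 0.07).

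Of the actins, only ACT11 and ACT12 were paired with a probe set of their own by the platform annotation, and both belong to the class known from reproductive tissues. The actins that predominate in leaves were not analysed here; that annotation does not list 8730 probe sets and gives 503 several genes. ACT11 (AT3G12110), known from pollen and ovules, had 3.05, 2.94 and 2.90 in bzip63-2 and 3.35, 3.17 and 3.34 in Ws. All bzip63-2 arrays were below all Ws arrays, though both genotypes were within 1 log2 unit of the floor. The difference was -0.32 (standard error 0.07), a 1.25-fold lower level, with an adjusted p of 0.48 from limma. ACT12, known from pollen, stayed between 2.47 and 2.49 on all arrays. The control probe sets of the array for an Arabidopsis actin, which name no actin gene, were mixed. The one for the middle of the transcript had 5.88, 5.94 and 5.87 in bzip63-2 and 6.09, 6.22 and 5.97 in Ws, lower in every bzip63-2 array. The 3′ one had 7.41, 7.42 and 7.29 in bzip63-2 and 7.28, 7.31 and 7.34 in Ws, which overlapped.

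**Figure D2:**
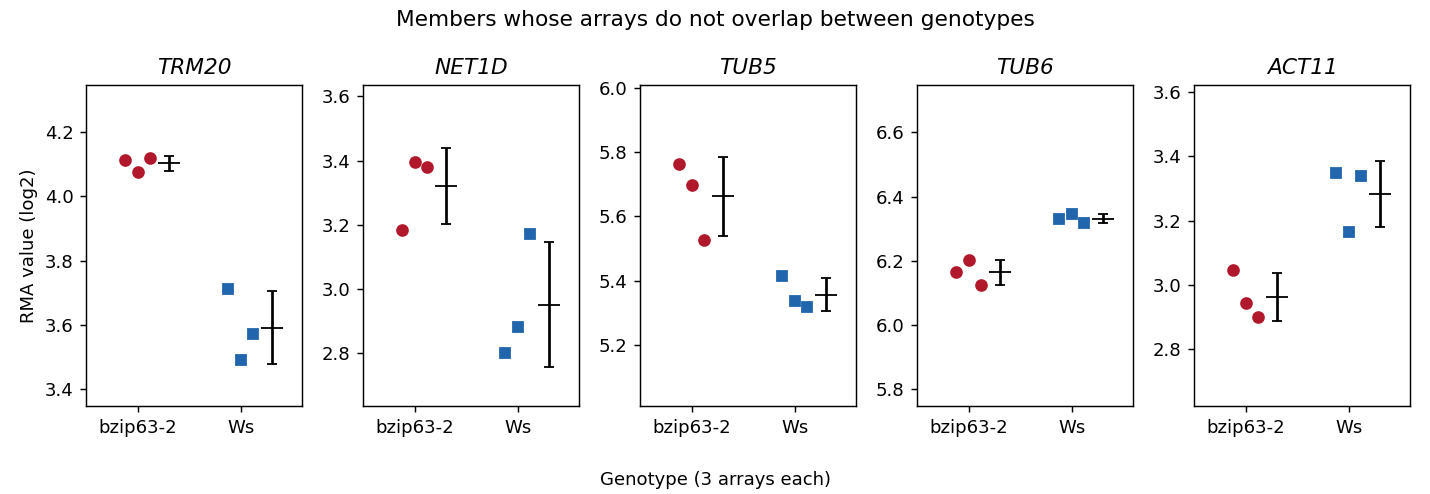
RMA values (log2, vertical axis; each panel spans 1 log2 unit) of the 5 members whose arrays do not overlap, with bzip63-2 arrays on the left, Ws arrays on the right, and the mean and SD of 3 arrays beside them. TRM20, NET1D and TUB5 were higher in every bzip63-2 array, and TUB6 and ACT11 were lower.

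TRM20 (AT4G28760) showed the largest difference of the 34 members. It had 4.11, 4.08 and 4.12 in bzip63-2 and 3.71, 3.49 and 3.57 in Ws. The bzip63-2 arrays lay close together, 0.36 or more above the highest Ws array. The mean was 4.10 ± 0.02 (SD, n = 3 arrays) in bzip63-2 and 3.59 ± 0.11 (SD, n = 3) in Ws, a difference of 0.51 (standard error 0.06) and a 1.43-fold higher level. The adjusted p from limma was 0.28 over all probe sets. TRM20 was the one member to pass when the dim probe sets, averaging 3 or less, were dropped before the fit (adjusted p = 0.038 from limma over 8242 probe sets), where 0.340% of probe sets were called higher. In that filtered fit, leaving out 1 array kept the call only for Ws replicate 1 (adjusted p = 0.044 from limma). Without Ws replicate 2 or 3 or any bzip63-2 replicate the adjusted p was 0.066 to 0.17, so this call depends on 5 of the 6 arrays.

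The other TON1-recruiting genes with a mean above 3, TRM19 and TRM21, overlapped between the genotypes. TRM19 had 3.38, 3.23 and 3.44 in bzip63-2 and 3.35, 2.94 and 3.23 in Ws, with a difference of 0.18 (95% interval from -0.17 to 0.53, which includes the difference of TRM20). TRM21 had 3.13, 3.14 and 3.33 in bzip63-2 and 3.16, 3.14 and 3.19 in Ws, with a difference of 0.04 (95% interval from -0.13 to 0.20). Within each array, TRM20 minus TRM21 was 0.90 ± 0.10 (SD, n = 3) in bzip63-2 and 0.43 ± 0.11 (SD, n = 3) in Ws, a shift of 0.47, for a pair chosen after the values were seen. TRM22, between the floor and a mean of 3, had 2.77, 2.58 and 2.66 in bzip63-2 and 2.58, 2.54 and 2.51 in Ws, with a tie between the lowest bzip63-2 and the highest Ws value. The other 10 genes, TRM15, TRM18, TRM23, TRM24, TRM25, TRM26, TRM28, TRM31, TRM33 and TRM34, lay between 2.47 and 2.61 on every array, and their differences ran from -0.05 to 0.02. The median difference of the 15 TRM symbols was 0.00. TRM82, the tRNA modification gene, had 3.13, 2.95 and 3.04 in bzip63-2 and 3.11, 3.16 and 3.10 in Ws.

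Among the actin-binding NET genes, NET1D (AT1G03080) was higher in bzip63-2, though narrowly. It had 3.18, 3.40 and 3.38 in bzip63-2 and 2.80, 2.88 and 3.17 in Ws. Ws replicate 3 came within 0.01 of bzip63-2 replicate 1, and the Ws arrays spread more widely than the bzip63-2 arrays. Both genotypes were within 1 log2 unit of the floor, where differences are compressed. The difference of NET1D was 0.37 (standard error 0.12), a 1.29-fold higher level, with an adjusted p of 0.74 from limma. Its unadjusted p under 0.05 was lost without Ws replicate 1, Ws replicate 2, bzip63-2 replicate 2 or bzip63-2 replicate 3. TRM82 lies on chromosome 1 with 4 protein-coding genes between it and NET1D, and did not share its direction.

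The other NET genes overlapped between the genotypes, and 7 of them had a mean below 3. NET1B had 3.09, 3.09 and 3.04 in bzip63-2 and 3.04, 2.79 and 3.03 in Ws, where replicate 2 was low and the lowest bzip63-2 value met the highest Ws value. NET1A, known from the plasma membrane and plasmodesmata, had 2.74, 2.81 and 2.72 in bzip63-2 and 2.82, 2.72 and 2.79 in Ws, and NET1C stayed at the floor. NET4B (AT2G30500), known from the vacuole membrane, was the brightest NET probe set, with 4.66, 4.73 and 4.70 in bzip63-2 and 4.53, 4.31 and 4.73 in Ws. Its bzip63-2 arrays agreed within 0.07, while Ws replicate 3 lay among them and the other Ws arrays below, so the difference of 0.17 had a 95% interval from -0.14 to 0.49, which includes the difference of NET1D. Without Ws replicate 3 the difference of NET4B was 0.28, with an unadjusted p under 0.05, in a fit where 8.59% of all probe sets passed. Without Ws replicate 2 its difference was 0.07, and leaving out any array other than Ws replicate 3 gave no such p. NET2C and NET2D of the pollen tube class, NET3A, NET3B, and NET3C, known from contacts of the endoplasmic reticulum with the plasma membrane, lay between 2.47 and 2.65 on every array.

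**Figure D3:**
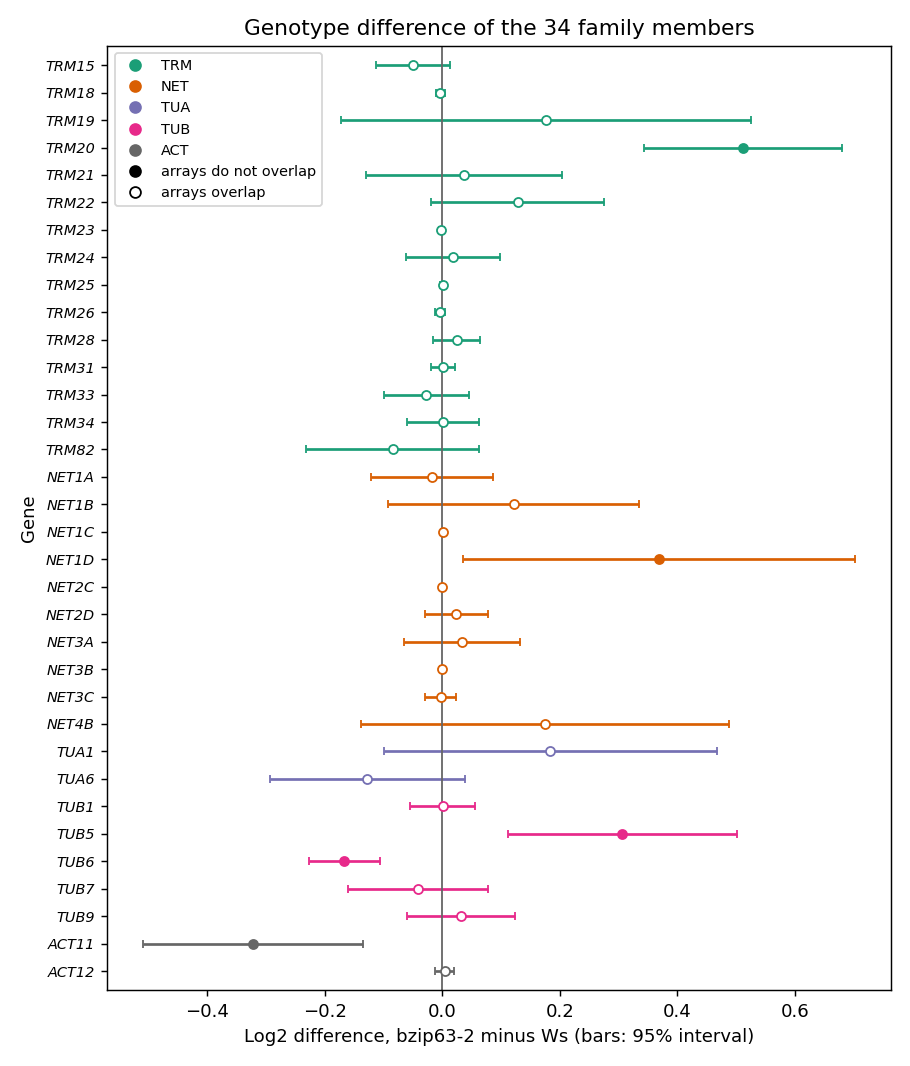
Log2 difference of bzip63-2 minus Ws (horizontal axis) with its 95% interval from limma for all 34 members (vertical axis), coloured by family, with filled points where bzip63-2 and Ws arrays do not overlap. The 5 filled points are TRM20, NET1D, TUB5, TUB6 and ACT11, and members at the floor sit on 0 with short intervals.

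Over the 29 members whose arrays overlapped or tied, the differences ran from -0.13 to 0.18. Among the 9 of them with a mean above 3 the adjusted p from limma was 0.74 to 0.88. Their 95% intervals reached at most 0.53 on the higher side and -0.29 on the lower side, so these arrays leave room for measured differences of that size. The value of 0.53 is that of TRM19. TRM19, TRM21, TRM82 and NET1B had means of 3.01 to 3.26, near the floor. Compression there means that their intervals set no limit on the difference in transcript level. For the 9 members at the floor no difference in level could be read.

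A further 212 symbols and synonyms of cytoskeleton and cell division genes were looked up by name, of which 22 genes had a probe set of their own. After adjustment limma called 0 of them. Without adjustment, WLIM1 and CRK passed as higher and TON1B as lower, against the same backgrounds of 4.33% and 2.04%. Of the 22 genes, 13 had a mean above 3, against 36.2% of all probe sets. Among the 8242 probe sets with such a mean, 837 passed as higher and 357 as lower, so those backgrounds are low for this list. Arrays did not overlap for 3 of the 22 as higher and 1 as lower, against 6.81% and 3.23% of all probe sets. WLIM1 (AT1G10200), a LIM domain protein that bundles actin filaments, had 4.65, 4.66 and 4.72 in bzip63-2 and 4.13, 3.98 and 4.40 in Ws. All bzip63-2 arrays were above all Ws arrays, with a difference of 0.50 (standard error 0.12), about the size of that of TRM20, and an adjusted p of 0.52 from limma. CRK, the ARPC5 subunit of the actin-nucleating ARP2/3 complex, had 2.69, 2.68 and 2.83 in bzip63-2 and 2.49, 2.50 and 2.56 in Ws, close to the floor throughout. PIR121, of the WAVE complex that activates ARP2/3, had 3.39, 3.49 and 3.60 in bzip63-2 and 3.18, 3.38 and 3.28 in Ws. It was higher in every bzip63-2 array, by only 0.003 at the nearest, with an unadjusted p of 0.054 from limma.

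On the microtubule side, TON1B (AT3G55005), one of the TON1 proteins that TRM proteins recruit, had 3.18, 3.15 and 3.13 in bzip63-2 and 3.24, 3.22 and 3.18 in Ws. It was lower in every bzip63-2 array, but the genotypes lay only 0.004 apart at the nearest. The difference was only -0.06 (standard error 0.02), with an adjusted p of 0.73 from limma, in the direction opposite to TRM20. SPR1, a plus-end protein that keeps growth straight, had 5.71, 6.02 and 5.95 in bzip63-2 and 5.98, 5.82 and 5.78 in Ws, with full overlap. Its relative SP1L3 had 6.21, 5.99 and 6.15 in bzip63-2 and 6.06, 6.04 and 6.34 in Ws. The tubulin folding factors PFI and POR and the WVD2-like gene AT3G23090 stayed below 3. No probe set was named for the listed kinesin or microtubule nucleation genes, which were not analysed here.

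**Figure D4:**
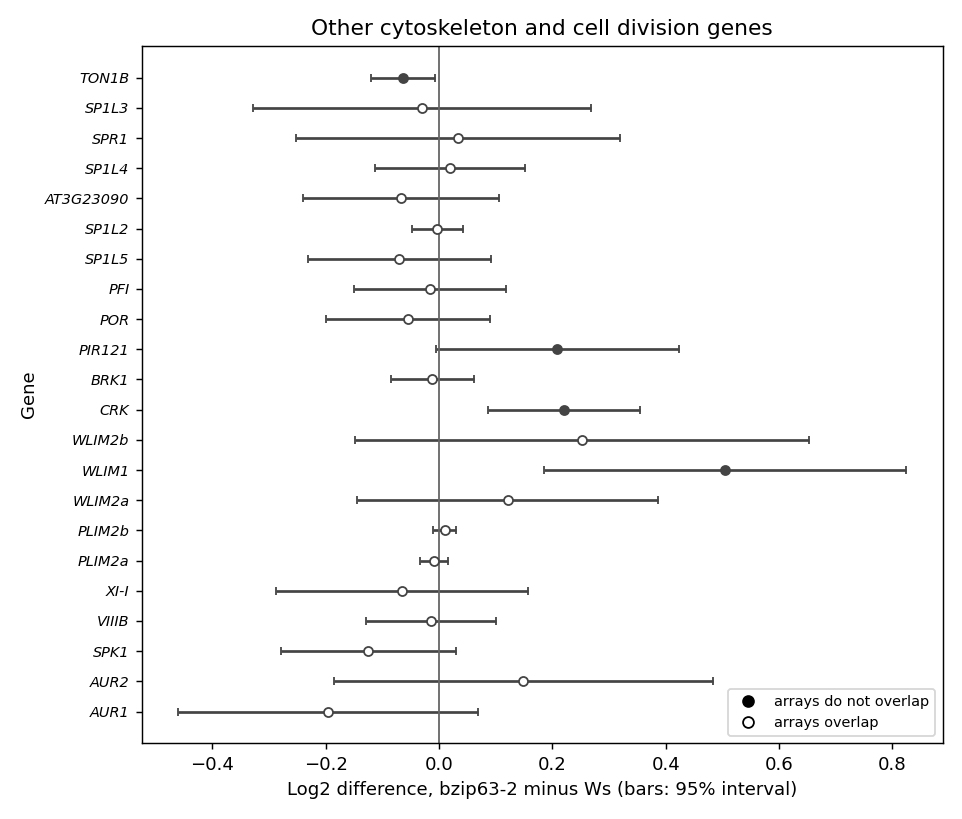
Log2 difference of bzip63-2 minus Ws (horizontal axis) with its 95% interval from limma for 22 other cytoskeleton and cell division genes (vertical axis), with filled points where bzip63-2 and Ws arrays do not overlap. WLIM1, CRK and PIR121 lie to the right of 0 and TON1B just to the left.

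Markers of dividing cells and of other leaf cell types were set beside these values. AUR1, an Aurora kinase of dividing cells, had 3.01, 3.01 and 3.07 in bzip63-2 and 3.32, 3.33 and 3.02 in Ws, and AUR2 had 3.60, 3.38 and 3.20 in bzip63-2 and 3.38, 3.17 and 3.19 in Ws. Both overlapped, and no other division marker of the list had a probe set of its own. Of the 3 measured guard cell lineage markers, FMA was higher in every bzip63-2 array, at 2.87 to 2.93 in bzip63-2 and 2.75 to 2.85 in Ws, and SPCH and MUTE overlapped. All 3 had means below 3, close to the floor. Their summed log2 values were 8.45 to 8.47 in bzip63-2 and 8.27 to 8.36 in Ws. Most of that difference came from FMA (0.10, against 0.02 for SPCH and 0.01 for MUTE), so the sum adds little to FMA alone. The trichome marker TRY overlapped, at 2.67 to 3.06 in bzip63-2 and 2.55 to 2.73 in Ws. The 3′ minus 5′ difference of the ubiquitin control probe sets, a reading of RNA integrity, was 2.11 to 2.20 in bzip63-2 and 2.24 to 2.31 in Ws, lower in every bzip63-2 array, and that of the GAPDH controls overlapped. The part of these shifts in the differences of TRM20, TUB5, TUB6, NET1D and ACT11 was not tested.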

How the data were processed

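Transcripts of 6 samples were measured on ATH1 arrays. The deposited values are 1 log2 value per probe set and array, made by the authors with RMA in Affymetrix Expression Console; the versions are not given in these sources, and the log2 scale was inferred from the range. The authors' affylmGUI is an interface to limma, so limma 3.58.1 in R 4.3.3 (lmFit and eBayes, standard prior) was fitted to all 22746 probe sets without 64 control probe sets, with Benjamini-Hochberg adjustment and a threshold of 0.05; the unadjusted threshold is that of the methods. No filter was applied in the fit reported first. The platform annotation gives 13513 probe sets 1 gene, 503 several genes, and does not list 8730; symbols and locus codes follow RefSeq (TAIR10.1). The bZIP63 probe set was identified by the locus code paired with it in the study's supplementary table. On simulated data for this comparison, over 22746 probe sets, 200 probe sets with a mean above 4 were changed. Of these, 60% of 2-fold and 97% of 4-fold changes were recovered, with 10 false calls. Only 6 of the 34 members had such a mean, so recovery was not measured for dimmer members such as TRM20, NET1D and ACT11. Every member differed by less than 2-fold, so recovery was not measured at the size of any member's difference either. In the real data the same fit called 0 probe sets.

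Members, gene lists and tests were chosen with earlier results of these data known. Values on every array are given for members with an unadjusted p under 0.05 or no overlap, the brightest of each family, and others for context, which were chosen after their values were seen. The replicates are pools of separate plants per the labels' wording of biological replicates; how the pools were spread over plantings is not stated. The number of arrays limits the precision. Alternatives changed the prior (trend or robust), repeated the normalization, set a minimum mean, changed which probe sets entered, added the replicate number as a block, or left out each array.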

Additional observations from a re-analysis of the deposited data

Results flagged for a closer look

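Control probe sets were outside the comparison. The 5′ control probe set for an Arabidopsis ubiquitin transcript was higher in every bzip63-2 array than in any Ws array, with 7.07, 7.32 and 7.05 in bzip63-2 and 6.78, 6.78 and 7.01 in Ws, a log2 difference of 0.29.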

How the results depend on the processing

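The directions of TRM20, NET1D, NET4B, TUA6, TUB5, TUB6 and ACT11 held in every alternative in which they were fitted, with ranges of 0.46 to 0.57, 0.29 to 0.48, 0.07 to 0.28, -0.17 to -0.08, 0.25 to 0.37, -0.20 to -0.15 and -0.38 to -0.29. The count of members called was 0 in the alternatives that fitted all probe sets and without means of 4 or less, where TRM20 was not fitted, and 1 without means of 3 or less. There the median difference of the 14 members left was 0.0793, against 0.0347 over all 8242 probe sets of that fit. With quantile normalization repeated as well, the median over all of those probe sets was -0.0038. NET1D and NET1B, each with a Ws mean of 2.95, passed the minimum of 3 only through bzip63-2. ACT11, with a bzip63-2 mean of 2.96, passed it only through Ws. The median of 0.0793 therefore depends on the filter, and nothing is concluded from it. Combining that minimum with a second change, which was chosen after seeing the data, also gave 1 with quantile normalization repeated, the trend prior, the robust prior and without Ws replicate 1 (adjusted p of TRM20 0.032 to 0.044 from limma), and 0 in the other combinations. At an unadjusted p under 0.05, 1 member was higher and 1 lower without means of 4 or less, of 6 fitted. In that fit 18.66% of all probe sets fitted passed in either direction. The replicate block gave 4 higher (TRM20, NET1D, TUB5 and TUA1) and 4 lower (TUB6, ACT11, TUA6 and TRM15), against 6.88% of all probe sets. With that block and without means of 3 or less, the adjusted p of TRM20 was 0.085 from limma. Leaving out 1 array gave 2 to 5 higher and 2 to 3 lower. The 5 higher came without Ws replicate 3 (NET4B and TUB9 in addition), where 8.59% of all probe sets passed. For the other omissions that share was 5.29% to 6.23%. Deviations from the group means correlated at -0.02, 0.02 and 0.05 for same-numbered arrays, and between -0.085 and 0.076 for the other pairs. These correlations cannot decide whether same-numbered arrays shared a planting or a hybridization, which is not stated. Each member has 1 probe set, so the choice of probe set could not change a value.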
